A study of Mus musculus with 8 samples.

Results

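Tubulin genes encode the subunits of microtubules, and 10 of them, taken by gene name out of 55385 genes in the count table, are described here in mouse oocytes grown from embryonic stem cells. The set holds 4 alpha-tubulin genes (Tuba1a, Tuba1b, Tuba1c and Tuba4a), 5 beta-tubulin genes (Tubb2a, Tubb3, Tubb4b, Tubb5 and Tubb6) and 1 gamma-tubulin gene (Tubg1). Oocytes came from 2 stem cell lines of C57BL/6 x 129/SvJ background, both carrying the Blimp1-mVenus and Stella-ECFP fluorescent reporter transgenes. One is labelled sex converted XX (N2DsRed4XO63R2), in a series whose title concerns oocytes obtained from male mice, and the other native XX (H18). Each is a single line, so a difference between sex-converted and native oocytes cannot be told apart from a difference between these lines.

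Oocytes of all groups grew in follicles whose somatic cells were not made from the stem cells: 5000 germ cells were combined with 75000 somatic cells of female gonads of embryonic day 12.5. After 21 days of differentiation culture and 11 days of growth culture with FSH, and with BMP15 and GDF9 in its first days, germinal vesicle (GV) oocytes, arrested in prophase of meiosis I, were freed of cumulus cells with enzymes and a glass capillary in the presence of dbcAMP and IBMX. Metaphase II (MII) oocytes were taken after 16 hours more in a medium with FSH, EGF and hCG, were stripped with hyaluronidase and were picked by their first polar body. Only Stella-ECFP-positive oocytes were pooled, 31 to 158 per GV library and 35 to 58 per MII library, with 2 libraries in each of the 4 groups. All libraries were made from polyadenylated RNA.

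Alpha- and beta-tubulin form heterodimers that polymerise end to end into microtubules, and gamma-tubulin sits in ring complexes from which new microtubules grow. In mouse oocytes, which lack centrioles, microtubules are assembled from many organising centres into the meiotic spindle as the germinal vesicle breaks down. The several alpha and beta genes, called isotypes, encode similar proteins that differ mainly in their C-terminal tails. A fully grown oocyte transcribes little or nothing, so its mRNAs change mostly through decay, and through lengthening or shortening of poly(A) tails, which decides whether an mRNA is translated and also how well it is captured by a poly(A) selection.

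Between GV and MII the tubulin mRNAs went in opposite directions, and the beta isotype that led the family changed. Tubb3 rose more than 5-fold in both lines to become the most abundant of the 10 per length, while Tuba4a, Tubb4b, Tubb5 and Tubb6 fell in both lines by 6.7-fold or more. These directions held under every scaling tried, but the sizes depend on it. With reads scaled to library totals alone, Tubb3 rose by 1.54 in the native and 1.49 in the sex-converted line on the log2 scale. No tubulin gene was called different between the lines at either stage, where 0.0134% of all genes tested were called at each.

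Libraries held 10306471 to 14999003 reads in genes. Values below are CPM, which are reads scaled to library size after adjustment by the trimmed mean of M-values (TMM), and levels compared between genes are CPM per kilobase of exonic length. Of 13 oocyte markers, such as Zp3 and Gdf9, 12 or 13 had reads in every library. Of 15 granulosa and cumulus markers, 9 to 13 had reads, and their summed level was 57.0 to 76.3 CPM in GV libraries and 86.9 to 174 CPM in MII libraries. In CPM of library totals alone, without TMM, the sums were 78.6 to 101 and 63.5 to 124, which overlapped, so that the order of the stages depends on the scaling. Nr5a2, with 445 to 851 reads at GV and 244 to 274 at MII, and Cyp19a1, with 208 to 349 and 429 to 665, carried much of these sums. The highest sum was in native MII replicate 1, which had 470 reads of Gja1 against 57 in native MII replicate 2. Native MII replicate 1 also had the highest sum of 10 stromal and theca markers, at 20.1 CPM against 1.61 to 12.6 CPM elsewhere, of which Vim, also made by other cells, gave 175 reads and Col1a2 and Lum 0 in all libraries. Of 6 endothelial and blood markers, Pecam1, at 837 to 2884 reads, held nearly the whole sum of 60.2 to 277 CPM, whereas Cdh5 had 0 to 3 reads and Hba-a1 had 0.

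Not every tubulin gene can be counted equally well, because parts of these mRNAs are identical. On GENCODE M21 transcripts (GRCm38), the share of 75-base stretches also found in another gene was 68.3% for Tuba1a, 71.9% for Tuba1b and 56.7% for Tuba1c. It was 43.2% for Tubb2a, shared most with Tubb2b, and 37.8% for Tubb4b, shared most with the pseudogene Tubb4b-ps1. Tubg1 shared 7.64% with other genes, most with Tubg2, and Tuba4a, Tubb3, Tubb5 and Tubb6 shared none. How reads with several matches were counted is not given, so the levels of Tuba1a, Tuba1b, Tuba1c, Tubb2a and Tubb4b are uncertain.

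Overlapping gene models add a further limit. The model Gm49450 covers 26.2% of the exonic bases of Tuba1a and 22.7% of those of Tuba1b on their own strand, and it had 0 reads in all 8 libraries. Stk16 lies opposite 37.3% of Tuba4a and had 0 to 43 reads, and Fam166a lies opposite 5.8% of Tubb4b and had 0 to 7 reads. Gm41396, opposite 4.6% of Tuba1b, had 0 to 9 reads. Whether counting used strand is not given, so reads from opposite strands cannot be told apart. Reads over shared bases may be counted for either gene or for neither. Few reads of these models thus do not show how many the tubulin genes lost, and Tuba1a, Tuba1b and Tuba4a may be undercounted.

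**Figure D1:**
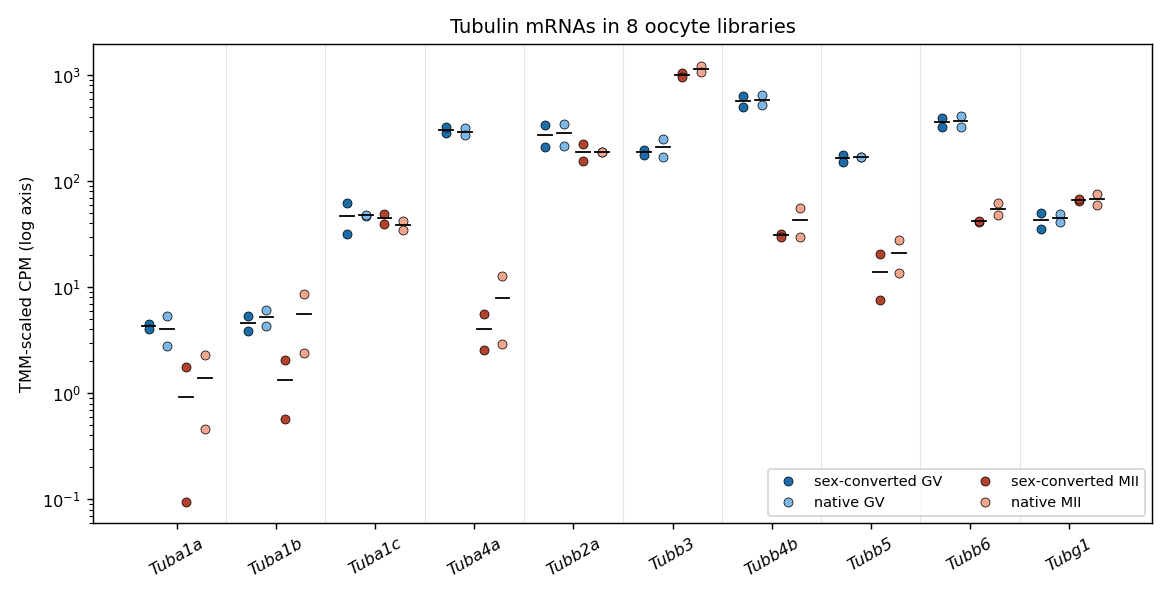
TMM-scaled CPM (log axis) of the 10 tubulin genes, with a point for each of 2 libraries per group and a line at the group mean. Tubb3 is the gene whose MII points (971 to 1227 CPM) lie far above its GV points (171 to 250 CPM), and Tuba4a shows the largest drop, from 271 to 327 CPM at GV to 2.57 to 12.8 CPM at MII.

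At GV the order of levels per kilobase of exonic length was the same in both lines. It ran Tubb4b, Tubb2a, Tubb6, Tubb3, Tuba4a, Tubb5, Tuba1c, Tubg1, Tuba1b and Tuba1a. Tubb4b stood at 271 ± 45.1 CPM per kilobase at GV in the sex-converted line and 282 ± 46.2 in the native line (mean ± SD, n = 2), higher than 99.5% of the genes tested. Libraries of neighbours in the order overlapped between Tubb2a and Tubb6, Tuba1c and Tubg1, and Tuba1b and Tuba1a in both lines, and between Tubb6 and Tubb3 in the native line. Tuba1a and Tuba1b were the lowest, at 2.26 to 2.78 CPM per kilobase in the group means, with 44.7% to 48.2% of the tested genes below them.

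That order rests on the length used, as other lengths, tried after seeing the data, showed. Per kilobase of coding length, and in CPM not scaled by length, Tubb6 and Tuba4a both came before Tubb2a at GV in both lines. The mean CPM of Tuba4a was 305 in the sex-converted and 293 in the native line, against 275 and 283 for Tubb2a.

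At MII the order was led by Tubb3 at 539 ± 26.8 CPM per kilobase in sex-converted and 616 ± 57.8 in native oocytes (SD, n = 2), above 99.4% and 99.5% of genes. Tubb2a came next at 118 ± 30.9 and 117 ± 0.951, and then Tubg1 at 29.5 ± 1.04 and 29.9 ± 5.42, with no overlap between libraries of these neighbours. Below them, Tuba1c, Tubb6 and Tubb4b lay between 14.8 and 22.6 in the group means. Tubb5, Tuba4a, Tuba1b and Tuba1a were at 6.27 or less, and the order within these 4 overlapped between most neighbours. From GV to MII, Tubb4b went from rank 1 to rank 6 in the sex-converted and 5 in the native line, Tubb3 from rank 4 to 1 and Tubg1 from rank 8 to 3.

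Maturation was tested in each line as MII against GV with edgeR's quasi-likelihood test, with Benjamini-Hochberg adjustment over 14929 genes, and a gene was called at an adjusted p under 0.05. In the native line 1 of the 10 tubulin genes was called higher and 4 lower at MII, where 65.2% of all genes tested were called, 29.6% higher and 35.7% lower. In the sex-converted line 2 were called higher and 6 lower, where 65.5% of all genes were called, 29.3% higher and 36.2% lower. The median log2 fold change of the 10 was -1.06 and -2.03, beside -0.31 and -0.34 over all genes tested. At 5 and 8 of 10, the members' share of calls was near that of all genes. All 10 passed the filter on low counts. Because GV and MII libraries differ in composition, every change is relative to the other mRNAs; with library totals alone the median of all genes moved by -0.91 in the native and -0.93 in the sex-converted line. Of all calls, 24.6% were then higher at MII in place of 45.3% in the native line, and 23.4% in place of 44.7% in the sex-converted line.

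**Figure D2:**
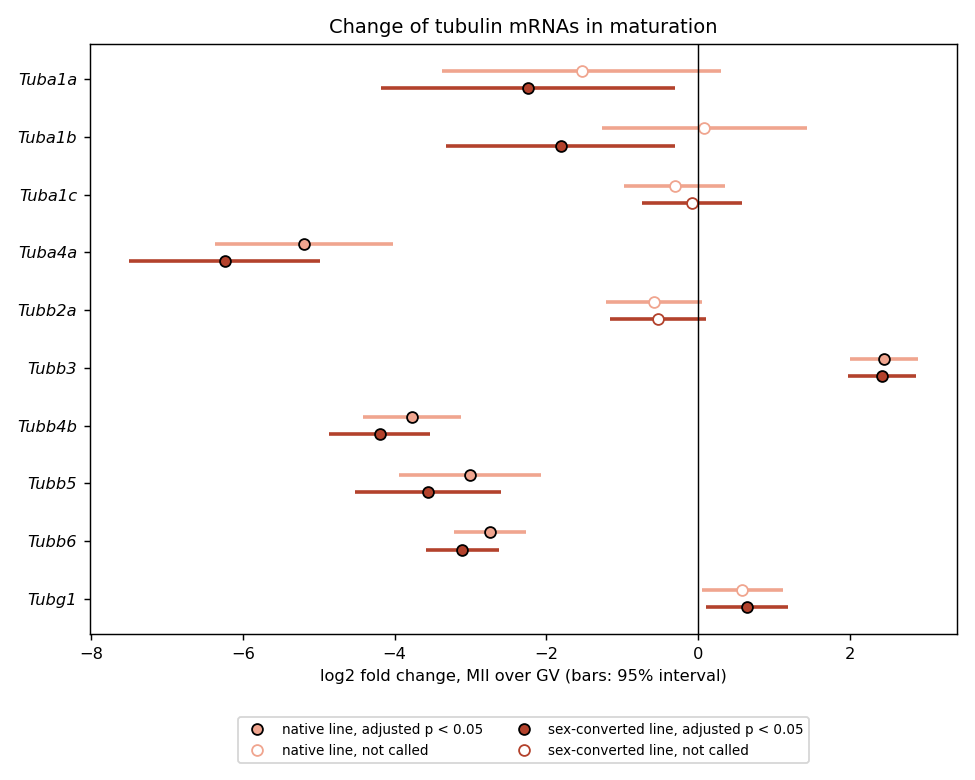
Log2 fold change of each tubulin gene from GV to MII in the native (light) and sex-converted (dark) line, with 95% intervals and filled points for an adjusted p under 0.05. Tubb3 lies at 2.45 and 2.43, and Tuba4a at -5.20 and -6.24.

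Among the alpha genes, the clearest change was in Tuba4a, an alpha-tubulin best known from platelets and muscle, at chromosome 1:75214228-75219865 on the minus strand. It had 283 and 327 CPM in the sex-converted GV libraries and 316 and 271 CPM in the native ones. At MII it had 5.58 and 2.57 CPM in the sex-converted libraries and 12.8 and 2.89 CPM in the native ones. No MII library came near a GV library, and native MII replicate 1 was the highest of the 4 MII libraries. The log2 fold change was -5.20 ± 0.53 (SE) in the native line, 36.7-fold lower (adjusted p = 9.63e-06), and -6.24 ± 0.57 in the sex-converted line, 75.5-fold lower (adjusted p = 4.44e-06, edgeR's quasi-likelihood test). Native MII replicate 1 was also the library with the most granulosa and stromal marker reads, and a link to its Tuba4a level was not tested. Without this library the native value was -6.67, and without native MII replicate 2 it was -4.54. In the sex-converted line the value was -6.89 without MII replicate 1 and -5.77 without MII replicate 2.

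Tuba1a and Tuba1b, a neuronal and a ubiquitous alpha-tubulin that lie side by side on chromosome 15 (98949837-98953703 and 98931425-98934565, minus strand), gave few reads. Tuba1a had 76 and 82 reads in sex-converted GV, 96 and 40 in native GV, 16 and 1 in sex-converted MII and 24 and 4 in native MII libraries. Tuba1b had 65 and 109, 77 and 87, 19 and 6, and 25 and 75 reads in the same groups. For both genes the GV libraries lay above the MII libraries in the sex-converted line, whereas for Tuba1b in the native line 1 MII library exceeded both GV libraries in CPM.

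In the sex-converted line Tuba1a changed by -2.24 ± 0.88 on the log2 scale (adjusted p = 0.0429) and Tuba1b by -1.81 ± 0.69 (adjusted p = 0.0363, edgeR's quasi-likelihood test). Both calls hung on single libraries. For Tuba1a the adjusted p became 0.0797 without sex-converted GV replicate 1, 0.0613 without GV replicate 2 and 0.207 without MII replicate 2, where the change was -1.28, against -5.36 without MII replicate 1. For Tuba1b it became 0.118 without sex-converted GV replicate 2 and 0.226 without MII replicate 2, where the change was -1.14, against -3.0 without MII replicate 1. In the native line the values were -1.53 ± 0.83 for Tuba1a (adjusted p = 0.128) and 0.08 ± 0.61 for Tuba1b (adjusted p = 0.918), neither of them called. For Tuba1a the native value was -3.13 without native MII replicate 1. It was called with library totals alone, at -2.43 (adjusted p = 0.025, edgeR). It was also called without the filter on low counts, at -1.63 (adjusted p = 0.0104, edgeR), where its SE was 0.555 in place of 0.83.

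Tuba1c, a broadly expressed alpha-tubulin at 15:99029891-99038110 on the plus strand, was not called in either line. It had 62.4 and 31.8 CPM in sex-converted GV, 46.7 and 48.3 in native GV, 49.3 and 39.8 in sex-converted MII and 42.0 and 34.6 in native MII libraries. GV and MII libraries overlapped in the sex-converted line, and in the native line both MII libraries lay just below both GV libraries. The log2 fold change was -0.31 (95% interval -0.98 to 0.36) in the native and -0.08 (-0.74 to 0.58) in the sex-converted line. With library totals alone it was called lower in both, at -1.22 and -1.03 (adjusted p = 0.006 and 0.0143, edgeR).

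Of the beta genes, Tubb3 alone was called higher at MII. It encodes the class III isotype known as a marker of neurons, and lies at 8:123411424-123422015 on the plus strand. It had 198 and 177 CPM in sex-converted GV libraries and 171 and 250 CPM in native ones. At MII it had 1041 and 971 CPM in sex-converted libraries and 1227 and 1075 CPM in native ones. The lowest MII library was thus well above the highest GV library. The log2 fold change was 2.45 ± 0.20 in the native line (5.48-fold, adjusted p = 2.32e-06) and 2.43 ± 0.20 in the sex-converted line (5.37-fold, adjusted p = 2.51e-06, edgeR's quasi-likelihood test). That placed Tubb3 above 92.8% and 93.3% of all genes tested. With library totals alone it was still higher at MII, by 1.54 and 1.49 on the log2 scale.

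Because tail length at the 3′ end bears on how an oocyte mRNA is captured from poly(A)-selected RNA, the annotated 3′ ends were searched on the transcript strand for the cytoplasmic polyadenylation element, TTTTAT or TTTTAAT, in the last 100 bases, and for the polyadenylation signal, AATAAA or ATTAAA, in the last 40. Of the 10 tubulin genes only Tubb3 held the element, starting 94 bases from the end. Windows of 30 bases from GENCODE M21 transcripts are shown for Tubb3, for Tubb4b and Tubb5 as genes that fell, and for Tubal3 and Tube1, tubulin genes outside the 10 that are described further on. Capitals mark the first element found or the signal. In Tubal3 another TTTTAT overlaps the end of the marked one and is left in lower case.
Tubb3, element: gtctgtTTTTATggtttgttttgttttttt
Tubb3, signal: ttAATAAAgttactgctgtctgtcagatac
Tubb4b, signal: taccaccATTAAAgcaattcatagtgtgtg
Tubb5, signal: agagccaaaAATAAAtgggaattggaaaaa
Tubal3, element: aacatttgtagaTTTTATtttatattaaaa
Tube1, element: cattcgtttttgTTTTATtagtatatgttt

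In Tubb3 the signal started 32 bases from the end, in Tubb4b 23 and in Tubb5 21, and no signal was found in the last 40 bases of the annotated Tuba1b and Tuba4a. Over all 19087 protein-coding genes with a 3′ UTR of 100 bases or more, 17.8% held the element. Among the genes tested in the native line, it was in 32.0% of 3783 called higher at MII, 10.5% of 4203 called lower and 17.5% of 3685 not called. The shares were 32.0%, 10.5% and 17.8% in the sex-converted line. The polyadenylation signal ran in the same order, so the difference is not particular to the element. The signal was in 82.8%, 68.9% and 77.4% in the native line and 83.1%, 68.5% and 77.7% in the sex-converted line. A match is a description of the annotated end and not evidence of a working site. A longer tail and more mRNA cannot be told apart in poly(A)-selected RNA.

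Tubb4b, the isotype typical of cilia and of dividing cells (2:25222160-25224702, minus strand), had 632 and 499 CPM in sex-converted and 521 and 657 CPM in native GV libraries. At MII it had 31.9 and 29.8 CPM in sex-converted and 56.2 and 29.9 CPM in native libraries. Stages were far apart, and 3 of the 4 MII libraries were alike, with native MII replicate 1 above them. The change was -3.77 ± 0.30 on the log2 scale in the native line (13.6-fold lower, adjusted p = 1.63e-06) and -4.20 ± 0.30 in the sex-converted line (18.4-fold lower, adjusted p = 1.15e-06, edgeR's quasi-likelihood test). The native change was -4.31 with native MII replicate 1 left out, and -3.41 with replicate 2 left out.

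Tubb5, the general beta-tubulin of proliferating cells (17:35833921-35838306, minus strand), had 178 and 152 CPM in sex-converted and 167 and 170.0 CPM in native GV libraries. It had 20.5 and 7.61 CPM in sex-converted and 28.1 and 13.7 CPM in native MII libraries, so that replicate 1 was the higher in both lines. The log2 fold change was -3.01 ± 0.42 in the native line (adjusted p = 9.29e-05) and -3.56 ± 0.44 in the sex-converted line (adjusted p = 3.41e-05, edgeR's quasi-likelihood test). Those are falls of 8.05-fold and 11.8-fold. The native change was -3.64 with native MII replicate 1 left out, and -2.61 with replicate 2 left out. The sex-converted change was -4.44 without MII replicate 1 and -3.01 without MII replicate 2.

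Tubb6, the class V beta-tubulin on chromosome 18, had 395 and 327 CPM in sex-converted and 325 and 412 CPM in native GV libraries. At MII it had 41.4 and 42.3 CPM in sex-converted and 62.3 and 47.8 CPM in native libraries. The native MII libraries were both above the sex-converted ones, and all were far below GV. Its log2 fold change was -2.74 ± 0.22 in the native line, 6.7-fold lower (adjusted p = 1.66e-06), and -3.11 ± 0.22 in the sex-converted line, 8.63-fold lower (adjusted p = 1.03e-06, edgeR's quasi-likelihood test).

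Tubb2a, a major beta-tubulin of brain at 13:34074274-34078007 on the minus strand, was not called in either line. It had 339 and 211 CPM in sex-converted GV, 216 and 350 in native GV, 226 and 155 in sex-converted MII and 190 and 188 in native MII libraries. One library of each GV group was high, and the sex-converted MII libraries spread across the lower GV library. The log2 fold change was -0.58 (95% interval -1.21 to 0.05) in the native and -0.53 (-1.16 to 0.10) in the sex-converted line, where edgeR's quasi-likelihood test gave 0.0931 and 0.122 as the adjusted p. With library totals alone it was called lower in both lines, at -1.5 and -1.47 (adjusted p = 0.00144 and 0.00163, edgeR). Single GV libraries mattered too. The native value was -0.87 without native GV replicate 1 and -0.20 without replicate 2. The sex-converted value was -0.80 without GV replicate 2, and its smallest fall over all alternatives was -0.146.

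High GV values fell on the same libraries for all 5 beta genes. Sex-converted GV replicate 1 and native GV replicate 2 had the higher value of their pair for each of them and for Tuba1c, as the CPM values above show, by a small margin for Tubb5 and Tuba1c in the native line. Their summed beta level was 835 and 886 CPM per kilobase, against 645 and 659 in the other GV libraries. The same libraries were the lower of their pair for Tubg1 and Tuba4a, and Tuba1a and Tuba1b followed neither pattern. The deviations of the GV libraries with the same number from their group means were correlated at -0.75 across 7683 genes, which are not independent replicates. What sets these libraries apart was not tested.

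Tubg1, the gamma-tubulin of dividing cells (11:101119938-101126419, plus strand), had 35.4 and 50.3 CPM in sex-converted and 49.5 and 41.2 CPM in native GV libraries. At MII it had 65.3 and 68.6 CPM in sex-converted and 76.5 and 59.1 CPM in native libraries. Every MII library was above every GV library in CPM, by a small margin. In the sex-converted line Tubg1 rose by 0.64 ± 0.24 on the log2 scale (adjusted p = 0.0365, edgeR's quasi-likelihood test), and with library totals alone the sign turned, to -0.29 (adjusted p = 0.29). The native value was 0.58 ± 0.24 (adjusted p = 0.0545) and -0.33 with library totals alone. Under another scaling, RLE size factors, the native value was 0.62 and was called (adjusted p = 0.0409, edgeR). The sex-converted call was lost without sex-converted GV replicate 1 (0.42, adjusted p = 0.233), MII replicate 1 (adjusted p = 0.0929) or MII replicate 2 (adjusted p = 0.133).

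Shares within a library do not depend on scaling between libraries. Of the summed level per kilobase of the 5 beta genes, Tubb3 held 12.7% to 15.1% in the 4 GV libraries and 75.7% to 80.0% in the 4 MII libraries. Tubb4b went the other way, from 35.5% to 37.9% at GV to 1.96% to 3.22% at MII. Tubb6 held 19.1% to 20.8% and then 2.31% to 3.06%, and Tubb5 5.77% to 7.64% and then 0.35% to 1.01%. Tubb2a held 20.3% to 25.2% and then 14.1% to 19.0%. Thus the 5 beta mRNAs were a mixture led by Tubb4b at GV, and Tubb3 with Tubb2a at MII.

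Of the 4 alpha genes, Tuba4a held 70.6% to 82.3% at GV and 3.76% to 14.2% at MII, and Tuba1c 13.0% to 25.2% at GV and 72.8% to 94.3% at MII. Tuba1c itself was not called in either line. The summed beta level spanned 645 to 886 CPM per kilobase at GV and 650.0 to 836 at MII, which overlap. In CPM of library totals alone, a scaling added after seeing the data, the GV libraries held 873 to 1222 per kilobase and the MII libraries 475 to 596, which do not. The summed alpha level was 99.0 to 111 CPM per kilobase at GV and 18.4 to 25.1 at MII, with no overlap, and 137 to 155 and 13.5 to 18.4 with library totals alone. The ratio of the alpha to the beta sum was therefore 0.112 to 0.169 at GV and 0.0284 to 0.0341 at MII. Alpha-tubulin genes outside the 10 were present as well, and unequal mappability limits such sums.

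**Figure D3:**
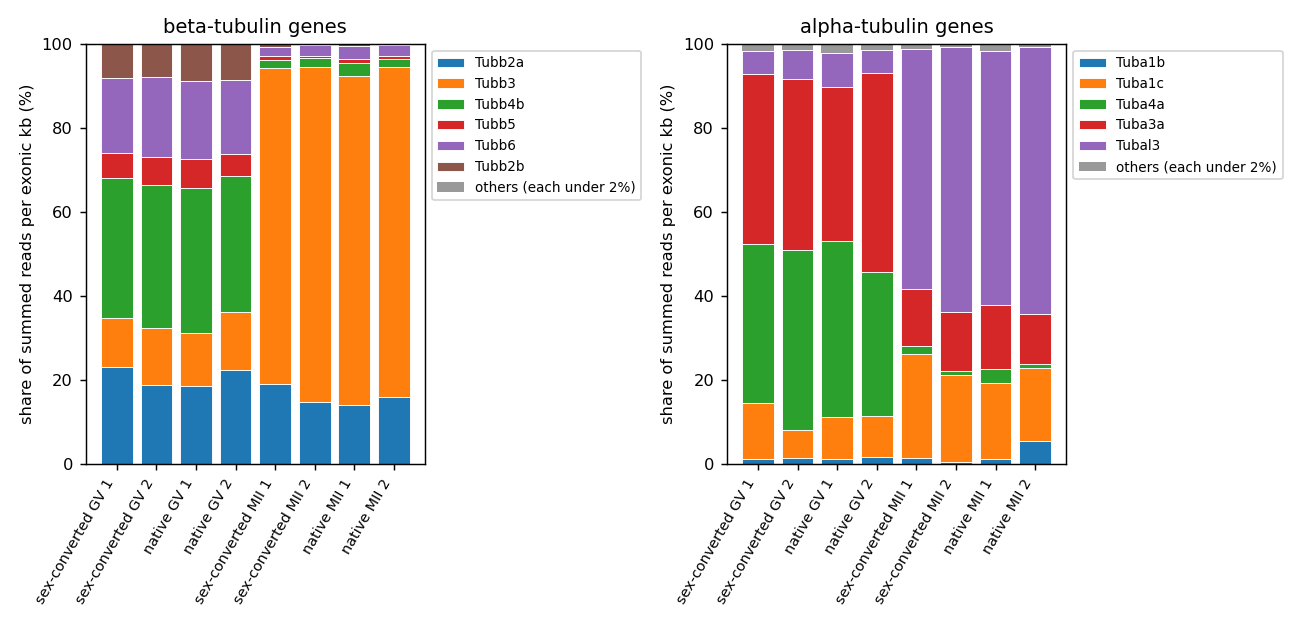
Share of each gene in the summed CPM per exonic kilobase of the beta-tubulin (left) and alpha-tubulin (right) genes, with the other tubulin genes included, in each of the 8 libraries. Tubb3 holds 75.3% to 79.7% of the beta sum in MII libraries, and Tubal3 57.3% to 63.5% of the alpha sum.

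Beyond the 10, the table held 10 further tubulin genes, of which 8 passed the filter on low counts (Tuba8 had 0 to 6 reads and Tubb1 0 to 3). In both lines 3 were called higher and 3 lower at MII. Of all genes tested, 29.6% were called higher and 35.7% lower in the native line, and 29.3% and 36.2% in the sex-converted line. Tubal3, a divergent alpha-tubulin, had 35.1 to 52.0 CPM in GV and 156 to 197 CPM in MII libraries and rose by 2.06 ± 0.23 and 2.02 ± 0.23 on the log2 scale in the native and sex-converted line (adjusted p = 1.69e-05 and 1.98e-05, edgeR's quasi-likelihood test). Tube1, the epsilon-tubulin known from centrioles, rose by 1.52 and 1.46, and with library totals alone by 0.60 and 0.52, where the sex-converted call was lost (adjusted p = 0.0777, edgeR). Both held the element searched in their 3′ ends, shown above. So did Tubb2b, which fell.

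Tubg2, the second gamma-tubulin gene, rose by 0.90 and 0.73 on the log2 scale, but with library totals alone it stood at -0.01 and -0.21 and was not called. It had 139 to 153 CPM in GV and 237 to 293 CPM in MII libraries, with no overlap. Tubb2b, close kin of Tubb2a, had 124 to 192 CPM at GV and 4.28 to 10.7 CPM at MII, with log2 fold changes of -4.73 ± 0.44 and -4.28 ± 0.43. Tuba3a, an alpha-tubulin known from testis, had 113 to 153 CPM and 15.5 to 23.5 CPM, with changes of -2.77 and -2.82. Tubd1, the delta-tubulin of centrioles, changed by -2.22 and -2.52 on the log2 scale.

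With these genes added, 2 alpha genes led at GV per kilobase of exonic length. Tuba3a held 36.8% to 47.5% of the alpha sum, and Tuba4a 34.3% to 42.8%. Which came first depended on the length, with other lengths tried after seeing the data. Tuba3a also shared 19.9% of its 75-base stretches with other genes and Tuba4a shared none, which makes their order less certain. Per kilobase of coding length Tuba4a held 52.1% to 60.5% and Tuba3a 20.9% to 29.3%. In reads not scaled by length they held 52.1% to 60.5% and 21.0% to 29.4%. At MII the sum per exonic kilobase was led by Tubal3, at 57.3% to 63.5%, from shares up to 8.06% at GV. The beta shares moved little, with Tubb3 at 11.7% to 13.8% and then 75.3% to 79.7%. The ratio of alpha to beta became 0.220 to 0.295 at GV and 0.117 to 0.128 at MII.

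Between lines, no tubulin gene was called at GV, where 0.0134% of genes were called, or at MII, where 0.0134% were called as well. By edgeR's quasi-likelihood test at an unadjusted p under 0.05 the counts were 0 of 10 at GV, beside 2.14% of all genes, and 1 of 10 at MII, beside 3.68%, and DESeq2 called 0 at each stage. At GV the log2 fold changes, sex-converted over native, spanned -0.17 to 0.06. Of the 10, 7 had a 95% interval within 2-fold in either direction, among them Tubb3 at -0.17 (-0.59 to 0.26) and Tubb4b at -0.06 (-0.64 to 0.52). The intervals of Tuba1a, -1.60 to 1.71, and Tuba1b, -1.5 to 1.15, were the widest.

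At MII the values spanned -2.07 to 0.21, and 5 of the 10 intervals were within 2-fold. Tubb3 was at -0.19 (-0.62 to 0.23), Tubb2a at 0.01 (-0.62 to 0.64) and Tubg1 at -0.02 (-0.55 to 0.52). Tuba1b had the lowest value, -2.07 (-3.60 to -0.53, unadjusted p = 0.013 and adjusted p = 1.0 by edgeR's quasi-likelihood test), and it rested on native MII replicate 2, with 75 reads against 25 in native MII replicate 1; without native MII replicate 2 it was -0.85. Tuba4a stood at -0.98, Tubb5 at -0.58, Tubb4b at -0.49 and Tubb6 at -0.40, and none was called. In each of these the highest library was native MII replicate 1, the library with the most granulosa and stromal marker reads. A link between these marker reads and the tubulin levels was not tested. Native MII replicate 1 was the higher of 2 native libraries in each, so leaving it out was bound to raise these values. Without it the values were 0.49 for Tuba4a, 0.05 for Tubb5, 0.06 for Tubb4b and -0.18 for Tubb6, so the first 3 changed sign. Tubb5 also rested on sex-converted MII replicate 2, without which it was at -0.02.

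**Figure D4:**
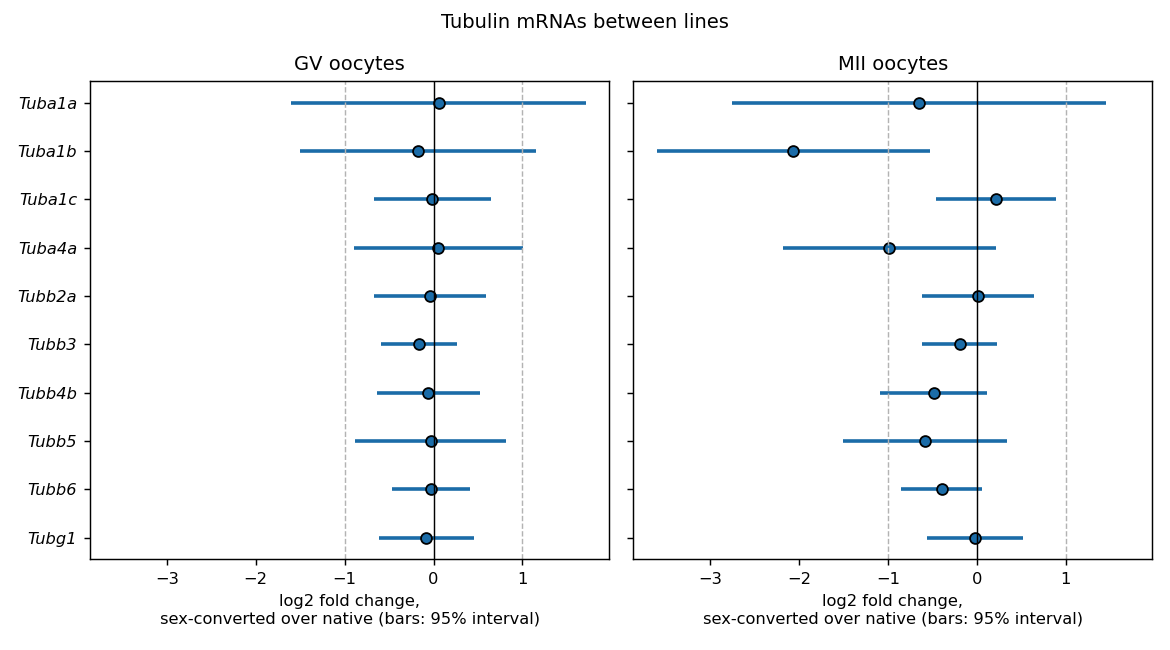
Log2 fold change of each tubulin gene, sex-converted over native, in GV (left) and MII (right) oocytes, with 95% intervals and dashed lines at 2-fold. At GV the points lie within -0.17 to 0.06, and at MII Tuba1b lies lowest, at -2.07.

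The change from GV to MII was then compared between the lines by the interaction term, given as sex-converted minus native. No tubulin gene was called, where 0% of all genes tested were called, and none had an unadjusted p under 0.05, beside 2.2% of all genes (edgeR's quasi-likelihood test; DESeq2 called 0). Values spanned -1.89 for Tuba1b (-3.92 to 0.13) to 0.23 for Tuba1c (-0.71 to 1.17). For Tubb3 the difference was -0.03 (-0.63 to 0.58), within 2-fold. Of the 10 intervals, 3 were within 2-fold, and the others reached past it. The calls of Tuba1a, Tuba1b and Tubg1 in the sex-converted line alone are thus not shown to differ from the native line.

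Genes that act on tubulin were followed in 6 further lists, each read against the 29.6% and 35.7% of all genes called higher and lower in the native line and 29.3% and 36.2% in the sex-converted line. Nucleation comes first: of 8 genes of the gamma-tubulin ring complex, 2 were called higher and 3 lower in each line, with median log2 fold changes of -0.44 in the native and -1.15 in the sex-converted line. Mzt1, a small subunit of the ring, had 22.9 ± 3.40 CPM in native GV and 215 ± 19.7 CPM in native MII oocytes (SD, n = 2), and rose by 3.23 ± 0.24 and 3.37 ± 0.24 on the log2 scale in the native and sex-converted line (adjusted p = 1.17e-06 and 1.03e-06, edgeR's quasi-likelihood test). Nedd1, which recruits the ring to the spindle, rose by 2.00 and 2.06. Tubgcp2, a core protein of the ring, changed by -4.51 and -5.14, and Mzt2 by -4.36 and -5.02. So proteins of the same complex were among the called genes in both directions.

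Of 20 tested genes for folding of new tubulin, 2 were called higher and 14 lower in the native line, and 2 and 13 in the sex-converted line, with medians of -1.89 and -2.24. They include the CCT chaperonin and prefoldin, which fold tubulin and actin, and the cofactors that join alpha with beta. Cct5, a chaperonin subunit, had 274 ± 42.2 CPM in native GV and 14.9 ± 7.37 CPM in native MII oocytes, with log2 fold changes of -4.19 and -4.14. Pfdn1 changed by -3.93 and -4.70, and Pfdn6 by -3.93 and -4.51. Against these, the prefoldin subunit Pfdn4 rose by 1.51 and 1.90. Cct8 rose by 0.44 and 0.54 (adjusted p = 0.0496 and 0.0222, edgeR's quasi-likelihood test), but with library totals alone it stood at -0.47 and -0.40, and without native MII replicate 1 the native call was lost (adjusted p = 0.277).

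Of 3 genes of tubulin autoregulation, by which cells destroy tubulin mRNAs during translation when free dimers are abundant, 2 were called lower in each line. Ttc5, which recognises the nascent tubulin chain, changed by -3.63 ± 0.68 and -4.4 ± 0.73 on the log2 scale (adjusted p = 0.000694 and 0.000291, edgeR's quasi-likelihood test), and Scaper, its partner, by -1.89 and -1.56. Cnot11, a subunit of the CCR4-NOT deadenylase, was not called, at 0.23 and 0.25. The median was -1.89 in the native and -1.56 in the sex-converted line.

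Of 18 tested enzymes that modify tubulin, mostly on its C-terminal tail, 6 were called higher and 10 lower in the native line, and 6 and 9 in the sex-converted line (medians -1.0 and -0.88). Agtpbp1, which trims glutamates from the tail, rose by 2.14 and 2.12 on the log2 scale, Atat1, the alpha-tubulin acetyltransferase, by 1.80 and 1.65, and Ttll4, which starts glutamate chains, by 1.60 and 1.55. Ttll1, the catalytic subunit of another glutamylase, changed by -3.90 and -3.68, Ttll11 by -2.29 and -1.84, and Agbl5, which removes the branch glutamate, by -2.25 and -2.12. Writers and erasers of glutamates were thus found on both sides.

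Of 22 spindle assembly and organising centre factors, 8 were called higher and 10 lower in the native line, and 7 and 10 in the sex-converted line (medians -0.41 and -0.23). Rcc1, the exchange factor that makes RanGTP on chromatin, rose by 2.38 and 2.25 on the log2 scale, Ckap5, a microtubule polymerase, by 1.93 and 2.04, and Cep192, an organising centre scaffold, by 1.87 and 1.88. Tacc3, which works with Ckap5 on spindle fibres, went from 990.0 ± 167 CPM to 13.4 ± 12.7 CPM in the native line and changed by -6.19 ± 0.77, with -6.41 ± 0.78 in the sex-converted line. Haus7 of the augmin complex changed by -4.70 and -4.74, and Nusap1 by -3.46 and -2.76.

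Among 25 tested genes for microtubule-associated, plus-end and severing proteins, 11 were called higher and 7 lower in the native line, and 12 and 7 in the sex-converted line, with medians of 0.35 and 0.33. With library totals alone the counts turned to 5 higher and 12 lower, and 4 and 11. Map4, the main microtubule-associated protein outside neurons, went from 358 ± 31.6 CPM to 1270.0 ± 57.0 CPM in the native line and rose by 1.83 and 1.69 on the log2 scale. The severing enzymes Spast and Fignl1 rose by 1.67 and 1.69 and by 1.65 and 1.85. Map1s changed by -3.83 and -4.62, the minus-end protein Camsap3 by -3.76 and -3.80, and Clasp1, a rescue factor, by -3.60 and -3.46. No gene of any of the 7 lists was called between the lines or in the interaction by edgeR's quasi-likelihood test. Of all genes tested, 0.0134% were called between the lines at each stage and 0% in the interaction.

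**Figure D5:**
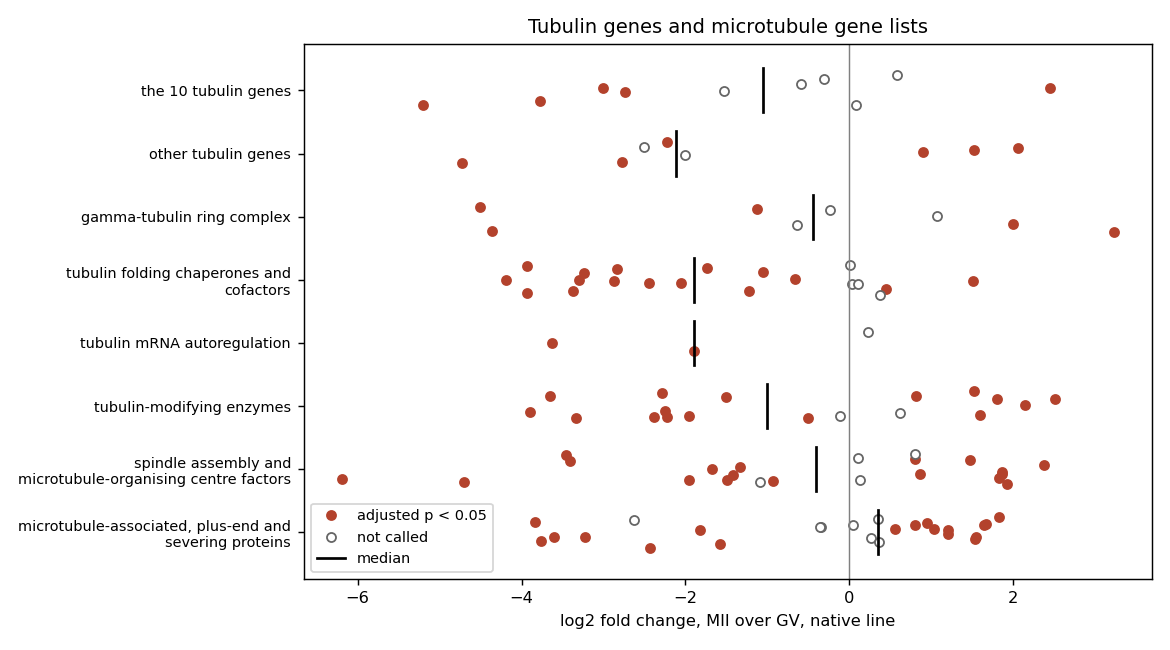
Log2 fold change from GV to MII in the native line for each tested gene of the 10 tubulin genes and of 7 lists, with filled points for an adjusted p under 0.05 and a bar at each list's median. Medians run from -2.11 for the other tubulin genes to 0.35 for the microtubule-associated, plus-end and severing proteins.

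For Tuba1b, Tubb5 and Tubg1 the genes with the most similar pattern were found by the Euclidean distance of log2(CPM + 0.5), centred on each gene's mean over the 8 libraries, among genes at 10 CPM or more on average. Nearest to Tubb5 were Slc25a4 (distance 0.33), Pradc1 (0.44) and Brf1 (0.47), and Slc25a4, a mitochondrial ADP/ATP carrier, went from a mean of 53.7 CPM at GV to 5.53 CPM at MII. Near to Tubg1 were Wdr70 (0.24) and Tpt1 (0.25), of which Tpt1, a tubulin-binding protein with other roles, went from 162 to 229 CPM. Tuba1b, itself under 10 CPM, had no close neighbour, with Uqcr11 at 1.67 and Sbf1 and Mks1 at 1.83.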

How the data were processed

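The authors deposited 1 table of unnormalized read counts per gene, from single 75-base reads of directional libraries amplified with 13 cycles of PCR. Per the submitters' processing notes, Trimmomatic 0.38, HISAT2 2.1.0, featureCounts 2.0.0, DESeq2 1.30.1 and the build mm10 were used. The sources used here do not give the strand setting, the handling of reads with several matches or the annotation release. Of 55385 identifiers, 55144 matched GENCODE M21 (GRCm38), and the other 241 held 0.00326% of reads.

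Counts were fitted with edgeR 4.0.16 in R 4.3.3 (glmQLFit and glmQLFTest, two-sided), with 1 coefficient per group, TMM factors (1.33 to 1.43 at GV, 0.714 to 0.733 at MII) and filterByExpr at a minimum count of 10, which kept 14929 genes. All 8 libraries shared 1 estimate of spread, with 4 residual degrees of freedom and a common coefficient of variation of 0.243. Standard errors are the absolute log2 fold change over the root of the F statistic, and intervals are 95%. The code was tested on simulated data. DESeq2 1.42.0 was an alternative. With 2 libraries per group, called biological duplicates in the labels, an exact permutation test of a single comparison cannot reach 0.05.

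The members and gene lists were chosen with earlier results of these data known. All 10 members are named, and from each list up to 3 genes in each direction with the largest change among those called in the native line at 10 CPM or more in the higher stage, with the 3 nearest genes in pattern to Tuba1b, Tubb5 and Tubg1, of which 1 is not reported here. Alternatives were other scalings and filters, a replicate block, DESeq2, fits of the compared groups alone and leaving out each library.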

Additional observations from a re-analysis of the deposited data

How the results depend on the processing

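The calls of Tubb3, Tuba4a, Tubb4b, Tubb5 and Tubb6 kept their direction and side of the threshold in both lines under all 15 alternatives run. Members called higher in the native line were 1, and 2 with RLE size factors (1 to 2 leaving out single libraries). Members called lower in the native line were 4, and 7 with library totals alone (4 to 5 leaving out libraries). In the sex-converted line 2 were called higher, and 1 with library totals alone, without the low-count filter, at a mean of 50 reads or more, or with the replicate block (1 to 2 leaving out libraries). Under library totals alone the share of calls that were higher was 24.6% against 45.3% in the native and 23.4% against 44.7% in the sex-converted line, and Tubg1 reversed to -0.29 in the latter. For the gene lists, chosen as alternatives after seeing the data, library totals alone changed these counts by more than 1.5 times: other tubulin genes lower, native, 3 to 5, and higher, sex-converted, 3 to 1; ring complex lower, 3 to 5 in both lines; folding genes higher, 2 to 1 in both lines; modifying enzymes higher, native, 6 to 3; and associated, plus-end and severing proteins as given in the report. Leaving out native MII replicate 1 took folding genes higher in the native line from 2 to 1, and RLE changed no list count by more than 1.5 times. The deviations of same-numbered libraries from their group means were correlated at -0.75 to 0.28 between groups. With 2 libraries per group this cannot tell whether the numbers pair the samples. With the replicate block, Tuba1b (adjusted p = 0.0542) and Tubg1 (adjusted p = 0.0589) were no longer called in the sex-converted line, and no other member's call changed. A block crossing the GV numbers, added after seeing the data, called 0 members between lines. Without the low-count filter Tubb2a was called lower in both lines (adjusted p = 0.00502 and 0.0211, edgeR) and Tuba1a in the native line (adjusted p = 0.0104). That fit estimated the spread otherwise. The adjusted p of Tuba4a in the native line was 7.6e-79 in place of 9.63e-06, and that of Tubg1 in the sex-converted line 0.0632 in place of 0.0365. Its calls are thus not on a par with those of the main fit. Mean shares and ratios over libraries of a stage moved with coding length, with unscaled reads and with the other tubulin genes added (chosen after seeing the data). In that order Tubb3 at GV went from 14.1% to 12.4%, 12.5% and 12.9%, Tuba4a at GV from 75.9% to 84.1%, 84.1% and 39.2%, and the alpha to beta ratio from 0.144 to 0.228, 0.229 and 0.255 at GV and from 0.0300 to 0.0378, 0.0378 and 0.121 at MII. Tuba4a at MII went from 6.93% to 10.8%, 10.8% and 1.71%, and to 4.51% without native MII replicate 1. Depth limits Tuba1a and Tuba1b, with 1 to 24 and 6 to 75 reads in MII libraries. The cause of these shifts was not tested.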
